A study of Mus musculus with 3 samples.

Results

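The 32 genes described here encode the heat shock proteins of the cell's folding machinery, most of them cytosolic, and the factors that work with them. They were taken by symbol from the 55450 features of each library, and each symbol matched 1 feature. The list falls into 12 genes known mainly for being switched on by stress (Hspa1a, Hspa1b, Hsph1, Dnajb1, Dnaja4, Dnajb4, Bag3, Hspb1, Hspb8, Cryab, Hsp90aa1 and Chordc1) and 20 that are also made in unstressed cells. Of those 20, Hspd1, Hspe1 and Hspa9 encode chaperones of the mitochondrial matrix, so the name cytosolic does not hold for them. Mouse pancreas was dissociated and measured as single cells with the 10x Chromium 3-prime kit, version 3, in 3 libraries, 1 per group. The first group is sedentary and its treatment label reads none, with no genotype, sex or age attached to it. The second is sedentary and labelled diabetic, and the third is labelled diabetic with exercise. By the series' design, treadmill training was given to male db/db mice, a leptin receptor mutant used as a model of type 2 diabetes, starting at 6 weeks of age. With 1 library per group no test between groups was possible, and every interval below is a 95% interval that covers counting error only. Fewer cells with a message and less message per cell cannot be told apart in summed counts.

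Heat shock genes are controlled mainly by heat shock factor 1, encoded by Hsf1, which is held inactive by chaperones in resting cells. When misfolded proteins draw those chaperones away, the factor forms trimers and binds heat shock elements, inverted repeats of the letters GAA in the promoters of its targets. HSP70 proteins then bind exposed hydrophobic stretches, J-domain proteins deliver clients and stimulate the ATPase of HSP70, and HSP110 and BAG proteins release the nucleotide. HSP90 with its co-chaperones matures kinases and steroid receptors, and small heat shock proteins hold unfolded protein until HSP70 takes it over. In the pancreas the acinar cells carry one of the heaviest protein-making loads of any cell, most of it folded in the endoplasmic reticulum by a separate set of chaperones.

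Hspa1a and Hspa1b, the stress-inducible HSP70 genes, lie side by side on the minus strand of chromosome 17 of GRCm38, at 34969190 to 34972156 and at 34956436 to 34959238, with 9951 bases between them. Their promoters are shown because the results turn on these genes. Bases before the start are not part of the message, so a promoter match does not show whether reads of the 2 copies can be told apart. Their transcripts were not compared here. RefSeq (GRCm38.p6) gives the 250 bases before each start, here 5′ to 3′ on the minus strand, with the 8-letter core of a heat shock element in capitals.
Hspa1a (chr17:34972157-34972406): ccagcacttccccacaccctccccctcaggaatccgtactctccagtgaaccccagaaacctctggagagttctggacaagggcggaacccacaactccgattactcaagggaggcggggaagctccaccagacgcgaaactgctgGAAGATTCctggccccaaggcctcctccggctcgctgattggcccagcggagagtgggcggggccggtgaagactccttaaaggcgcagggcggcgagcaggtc
Hspa1b (chr17:34959239-34959488): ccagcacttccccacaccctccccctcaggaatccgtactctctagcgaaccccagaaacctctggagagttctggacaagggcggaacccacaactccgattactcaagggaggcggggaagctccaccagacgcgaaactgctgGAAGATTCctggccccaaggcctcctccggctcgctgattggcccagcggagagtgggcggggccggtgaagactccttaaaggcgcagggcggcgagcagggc
The 2 sequences matched at 247 of 250 positions (98.8%), with an unbroken shared run of 201 bases, and the core stood 104 bases before the start in both. Gm20481 overlaps Hspa1a on the other strand, and no source used here states whether the counting used strand. Because the 2 genes are near-identical copies, the text gives the sum of Hspa1a and Hspa1b beside each gene.

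RefSeq promoter windows of 300 bases (250 before and 50 after the start) were matched for 26 of the 32 genes. The core, searched as GAANNTTC or TTCNNGAA on both strands, was found in at least 1 window of 9 of 10 matched inducible genes, 5 of 10 matched genes that are constitutive and also raised by heat, and 0 of 6 other constitutive genes. Among all 27025 genes of the table, 16.97% held it. A longer element of 13 letters, in which a core is extended by another GAA or TTC unit at the same spacing so that 3 units alternate, was found in 5 of 26 members and in 0.662% of all genes. The 5 are Hsph1, Chordc1, Hspd1, Hspe1 and Dnajb6, and their elements are shown in capitals because few genes hold such an element. Hsph1 and Dnajb6 held 1 each, the stretch of Hspd1 and Hspe1 held 2 that overlap, and that of Chordc1 held 3.
Hsph1 (chr5:149636280-149636308, minus strand): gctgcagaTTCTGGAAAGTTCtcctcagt
Chordc1 (chr9:18292260-18292288, plus strand): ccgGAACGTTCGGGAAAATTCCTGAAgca
Hspd1 (chr1:55088053-55088082, minus strand): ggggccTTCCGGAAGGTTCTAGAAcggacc
Hspe1 (chr1:55088053-55088082, plus strand): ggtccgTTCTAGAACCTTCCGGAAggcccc
Dnajb6 (chr5:29735844-29735872, plus strand): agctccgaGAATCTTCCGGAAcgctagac
Hspd1 and Hspe1 are transcribed away from each other, and the 30 bases printed for them are the same stretch read on opposite strands. A match describes letters only and shows no binding.

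The 3 libraries held 54128454 (none), 80185752 (diabetic sedentary) and 45209034 (diabetic exercise) UMIs, and 8711, 11019 and 15069 barcodes were kept. Cells were grouped without using the heat shock genes, and 5 classes named from marker genes held at least 50 cells in every library: acinar-like, ductal-like, endothelial-like, fibroblast-like and myeloid-like (macrophage, monocyte and dendritic markers). In the ductal-like, endothelial-like and fibroblast-like classes every marker of the class had at least 1 UMI in each library. Of the ductal-like cells, 202 of 203 in none, 591 of 786 in diabetic sedentary and 862 of 1193 in exercise came from 1 cluster. A further ductal-like cluster held 195 diabetic sedentary and 331 exercise cells. Acinar-like cells came from different clusters: 4095 of 6264 in none from one led by Amy2a5 and Amy2b, and 3783 of 5840 in diabetic sedentary from one led by Reg2 and Reg3a. The median mitochondrial share of UMIs was lowest in none and highest in diabetic exercise in each of the 5 classes, for example 1.23%, 4.48% and 7.75% in endothelial-like cells. The median share of UMIs from 33 acinar marker genes, a measure of stray acinar RNA, was 47.7%, 29.4% and 43.6% in endothelial-like, 44.4%, 27.6% and 35.6% in fibroblast-like, 38.9%, 28.2% and 38.5% in myeloid-like and 34.4%, 19.5% and 29.8% in ductal-like cells. Between libraries, 32 to 61 barcode sequences were shared.

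Hspa1a and Hspa1b together were at their lowest in the diabetic sedentary library in all 5 classes, in ductal-like cells only through 1 cell of none, and 2.98 to 4.18 times as high in the exercise library as there. Levels are given as CPM, the UMIs of a gene per 1000000 UMIs of the class after edgeR's TMM scaling, always in the order none, diabetic sedentary, diabetic exercise. In myeloid-like cells, where the genes stood highest, the summed level was 1009, 353 and 1150.5 CPM. Endothelial-like cells held 424, 83.5 and 349 CPM and fibroblast-like cells 438, 82.7 and 247 CPM. Acinar-like cells held 159, 46.5 and 150.3 CPM. Ductal-like cells held 90.9, 64.3 and 215 CPM and were the class in which exercise stood furthest above none. Across classes the order of levels in none was myeloid-like, then fibroblast-like and endothelial-like with overlapping intervals, then acinar-like and ductal-like. The acinar-like place in that order depends on the scaling: per 10000 UMIs with no scaling factor, acinar-like cells held 0.291 UMIs of the summed genes against 1.46 in ductal-like cells.

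**Figure D1:**
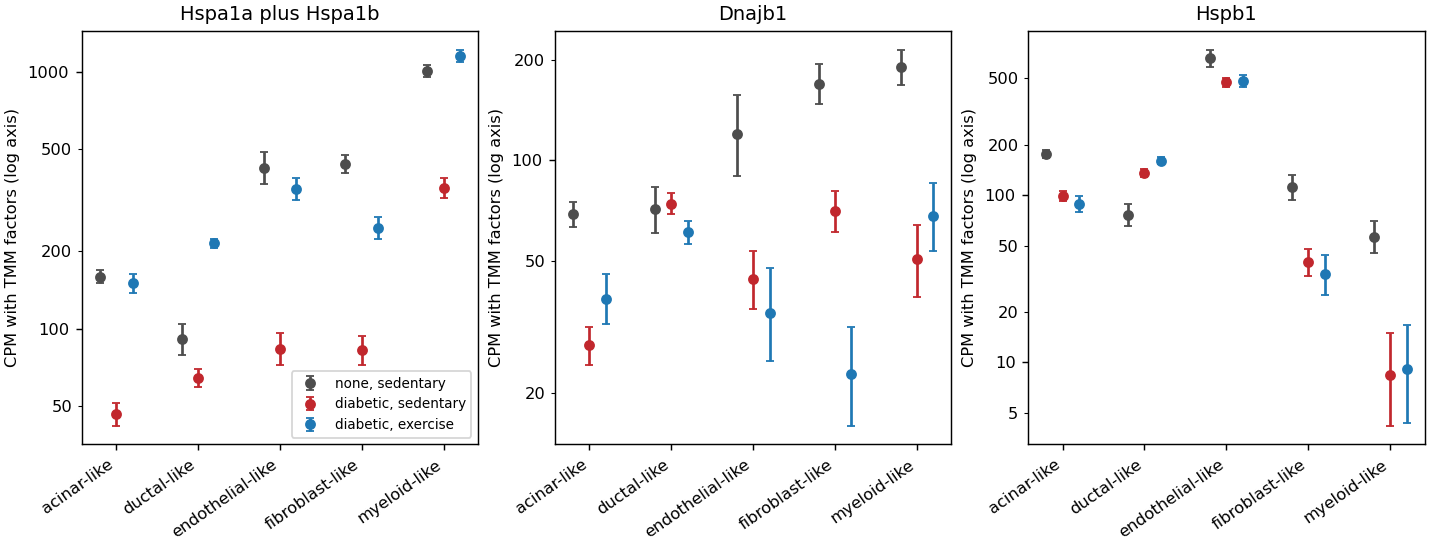
Level (CPM with TMM factors, log axis) of Hspa1a plus Hspa1b, of Dnajb1 and of Hspb1 in the 5 classes, 1 point per library, with 95% Poisson intervals for counting error. The summed HSP70 genes are lowest in diabetic sedentary in every class (46.5 CPM in acinar-like, 353 CPM in myeloid-like), in ductal-like cells only through 1 cell of none. Dnajb1 is below none in both diabetic libraries in every class but the ductal-like one, in acinar-like exercise only with these factors, and Hspb1 goes opposite ways in ductal-like and fibroblast-like cells.

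Against none, the diabetic sedentary level of the summed genes was 0.189 (0.161 to 0.221) times in fibroblast-like, 0.197 (0.160 to 0.242) times in endothelial-like, 0.292 (0.260 to 0.328) times in acinar-like and 0.350 (0.314 to 0.389) times in myeloid-like cells. In ductal-like cells it was 0.708 (0.605 to 0.832) times, but 1 cell of the none library held 68 of the 208 UMIs, and with the richest cell of each library left out the ratio was 1.02 (0.850 to 1.24). The low diabetic sedentary level was therefore measured in 4 of the 5 classes, and in ductal-like cells it rests on that cell. With the richest cells left out, the other 4 ratios were 0.204 to 0.348. The exercise level was 4.18 (3.51 to 4.99) times the diabetic sedentary level in endothelial-like, 3.34 (3.06 to 3.65) times in ductal-like, 3.26 (2.93 to 3.63) times in myeloid-like, 3.23 (2.83 to 3.70) times in acinar-like and 2.98 (2.53 to 3.52) times in fibroblast-like cells. The 2 comparisons share the diabetic sedentary library, so the exercise library is also set directly against none. That ratio was 2.37 (2.05 to 2.74) in ductal-like, 1.14 (1.06 to 1.23) in myeloid-like, 0.944 (0.850 to 1.05) in acinar-like, 0.824 (0.692 to 0.985) in endothelial-like and 0.563 (0.493 to 0.642) in fibroblast-like cells. Exercise was thus above none in ductal-like cells and below it in fibroblast-like cells. In the other 3 classes the direction against none turned with the processing: the ratio ran from 0.519 to 1.76 in acinar-like, from 0.741 to 1.10 in endothelial-like and from 0.962 to 1.55 in myeloid-like cells over the alternatives tried. Against diabetic sedentary the acinar-like exercise ratio stayed above 1, from 2.01 with finer clusters to 6.56 with library totals alone.

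Each gene alone was also lowest in diabetic sedentary in the acinar-like, endothelial-like, fibroblast-like and myeloid-like classes, with the cell richest in the summed genes left out as well, a check chosen after seeing the data. In myeloid-like cells Hspa1b was higher in exercise than in none (1.44 (1.28 to 1.61) times), while Hspa1a was not (0.945 (0.852 to 1.05) times), although with library totals alone its ratio was 1.29. Hspa1a was at 608, 231 and 575 CPM in myeloid-like, 243, 44.4 and 113 CPM in fibroblast-like and 221, 54.8 and 143 CPM in endothelial-like cells. Hspa1b was at 401, 121 and 576 CPM, 195, 38.3 and 133 CPM and 203, 28.7 and 206 CPM in the same 3 classes. Of the 2 copies, Hspa1b had the larger exercise over diabetic sedentary ratio in the ductal-like, endothelial-like, fibroblast-like and myeloid-like classes, 7.18 against 2.61 in endothelial-like cells, and Hspa1a in acinar-like cells. In acinar-like cells Hspa1a was at 70.7, 17.7 and 63.5 CPM and Hspa1b at 88.6, 28.8 and 86.8 CPM. In ductal-like cells the levels were 41.9, 32.2 and 97.1 CPM for Hspa1a and 48.9, 32.1 and 118 CPM for Hspa1b. Leaving out the richest cells took the none library there from 96 to 61 UMIs of Hspa1a and from 112 to 79 of Hspa1b, and the ratio of diabetic sedentary to none was then 1.17 (0.886 to 1.56) for Hspa1a and 0.908 (0.708 to 1.18) for Hspa1b. Exercise over none in those cells was then 3.57 (2.76 to 4.70) and 3.29 (2.62 to 4.19), beside 2.32 and 2.41 with all cells. No source used here states how reads shared by the copies were assigned, so a difference between the copies is uncertain.

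Cells of 1 cluster were also compared. In the acinar-like cluster led by Reg2 and Reg3a the summed genes were at 17.2 (6.30 to 37.4), 2.60 (2.07 to 3.23) and 20.6 (16.0 to 26.1) UMIs per 1000000, here with no scaling factor. In the acinar-like cluster that held most exercise cells they were at 49.3 (30.1 to 76.1), 19.8 (17.5 to 22.4) and 79.1 (71.8 to 87.0) UMIs per 1000000. None had 90 and 112 cells in these clusters, the fewest of the 3 libraries. In the cluster led by Amy2a5 and Amy2b, where none had most of its cells, the values were 16.6 (15.02 to 18.4), 2.91 (0.793 to 7.46) and 2.40 (0.0608 to 13.4) UMIs per 1000000, the last on 1 UMI in 51 cells, so exercise was not measurably above diabetic sedentary there. The cluster led by Mt2 and Amy2b held most of the summed UMIs of none, 781 of 1201 in 1925 cells. It stood at 46.0 (42.8 to 49.3) UMIs per 1000000 and had under 50 cells in each of the other libraries, so it allowed no comparison. In an acinar-like cluster led by Prss1, with 265 and 261 cells, diabetic sedentary stood at 12.6 (8.38 to 18.2) and exercise at 24.6 (14.6 to 38.9) UMIs per 1000000, with overlapping intervals. The acinar-like level is itself far under that of the endothelial-like class on the same scale, 433, 110.3 and 476 UMIs per 1000000. With each class's estimated acinar RNA subtracted, all ratios of the summed genes against none and against diabetic sedentary stayed within their counting intervals. The median acinar marker share per cell was lowest in diabetic sedentary in the ductal-like, endothelial-like, fibroblast-like and myeloid-like classes. In the summed UMIs the share was 44.53%, 35.8% and 29.68% in fibroblast-like cells and 41.27%, 29.78% and 27.41% in myeloid-like cells. It was 34.42%, 23.32% and 19.99% in ductal-like cells, and the exercise share was lowest in each of these classes. In endothelial-like cells it was 49.58%, 35.04% and 36.75%, lowest in diabetic sedentary.

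Cells with at least 1 UMI of either gene were counted after each cell had been thinned to 1000 UMIs. The share was 38.3% (33.1% to 43.8%), 27.2% (21.5% to 33.6%) and 50.5% (43.3% to 57.8%) in myeloid-like cells, the highest of the 5 classes in each library. In acinar-like cells, the main source of stray RNA, it was 3.28% (2.85% to 3.75%), 1.26% (0.988% to 1.58%) and 6.39% (5.54% to 7.33%), which is taken as the background. Without thinning the acinar-like shares were 11.2%, 4.66% and 12.9% at median depths of 4686.5, 6846 and 2068 UMIs per cell. Those of myeloid-like cells were 54.8%, 42.4% and 64.6% at 3840.0, 3666 and 2404 UMIs per cell. Endothelial-like cells stood at 10.2% (5.37% to 17.1%), 5.44% (3.64% to 7.76%) and 24.8% (20.2% to 29.9%) after thinning, and without it at 30.6%, 15.3% and 32.03%. Fibroblast-like cells stood at 14.9% (11.1% to 19.5%), 10.5% (7.96% to 13.5%) and 18.1% (13.7% to 23.2%), and without thinning at 33.9%, 21.9% and 27.3%. Ductal-like cells stood at 9.90% (6.15% to 14.9%), 9.51% (7.52% to 11.8%) and 21.7% (19.2% to 24.5%), and without thinning at 29.6%, 35.6% and 42.7%. The exercise share was above the diabetic sedentary share in all 5 classes, although the fibroblast-like interval for exercise begins at 13.7%, close to the 13.5% at which the diabetic sedentary interval ends. Between none and diabetic sedentary the intervals overlapped in every class but the acinar-like one. In 3 classes the number of UMIs in a cell that had any was further apart between those libraries than the share of cells without thinning, at 5.43 against 1.97 in fibroblast-like, 4.95 against 2.29 in endothelial-like and 7.69 against 4.62 in myeloid-like cells. In acinar-like cells it was the share that was further apart, beside 1.71 against 1.41 UMIs. The order of none and exercise is not read from these shares, since it goes against the CPM in 3 classes.

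**Figure D2:**
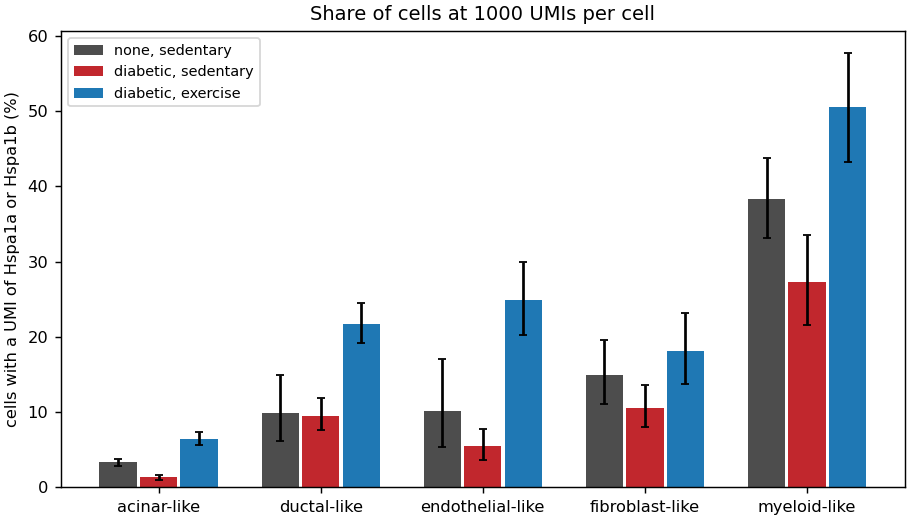
Share of cells (%) with at least 1 UMI of Hspa1a or Hspa1b after each cell was thinned to 1000 UMIs, per class and library, with exact binomial 95% intervals. In every class the exercise bar is above the diabetic sedentary bar, from 6.39% against 1.26% in acinar-like cells to 50.5% against 27.2% in myeloid-like cells.

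The messages were concentrated in few cells. The 10% of fibroblast-like cells with the most held 79.0%, 72.5% and 80.7% of the summed UMIs, and that of myeloid-like cells 59.0%, 62.1% and 57.6%. A single myeloid-like cell of the exercise library held 125 UMIs. In the none library, Hsph1 had a UMI in 10.8% of 130 thinned myeloid-like cells with Hspa1a or Hspa1b and in 0.957% of 209 cells without. In the exercise library the values were 5.10% of 98 and 2.08% of 96. Dnajb1 in fibroblast-like cells stood at 31.8% of 44 against 8.76% of 251 cells in none, and at 4.08% of 49 against 0.901% of 222 in exercise. Other partners did not all go this way in none: Dnajb1 in ductal-like cells stood at 5% of 20 against 6.04% of 182 cells, and Hspa8 in endothelial-like cells at 8.33% of 12 against 28.3% of 106. These shares rest on few cells and are given as a description.

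The 10 other inducible genes were mostly lower in diabetic sedentary than in none outside ductal-like cells, and their median ratio of exercise to diabetic sedentary was above that of all genes most clearly in myeloid-like cells. Median log2 ratios of diabetic sedentary to none over those 10 were -0.50 in acinar-like, 0.04 in ductal-like, -0.98 in endothelial-like, -0.76 in fibroblast-like and -1.35 in myeloid-like cells, with 10, 10, 9, 10 and 8 of them measured. A gene counts as measured with at least 20 UMIs over the 2 libraries compared. For exercise against diabetic sedentary the medians were -0.13, -0.19, 0.02, -0.08 and 0.55. In myeloid-like cells all 7 measured were higher in exercise. These 10 were separated from Hspa1a and Hspa1b after their values were known.

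Hsph1, the HSP110 that recharges HSP70, was at 62.8, 9.93 and 27.2 CPM in myeloid-like cells and 51.8, 10.0 and 7.67 CPM in endothelial-like cells. Diabetic sedentary stood at 0.158 (0.0810 to 0.284) and 0.193 (0.103 to 0.360) times none. The exercise level was 2.74 (1.39 to 5.73) times diabetic sedentary in myeloid-like cells, still 0.434 times none, and 0.766 (0.312 to 1.72) times in endothelial-like cells, where only 9 UMIs were counted. In fibroblast-like, acinar-like and ductal-like cells the levels were 38.4, 12.8 and 18.4, 31.6, 18.9 and 21.3 and 37.6, 17.7 and 18.3 CPM, lower in both diabetic libraries than in none, except that acinar-like exercise stood at 1.26 times none with library totals alone.

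Dnajb1, the main inducible J-domain partner of HSP70, was at 169, 70.3 and 22.9 CPM in fibroblast-like cells and lowest in exercise. Diabetic sedentary stood at 0.415 (0.340 to 0.506) times none and exercise at 0.326 (0.222 to 0.466) times diabetic sedentary, the opposite direction to Hspa1a and Hspa1b in the same cells. In endothelial-like cells it was at 119, 43.9 and 34.9 CPM, in myeloid-like cells at 189.9, 50.4 and 68.1 CPM and in acinar-like cells at 68.9, 27.8 and 38.5 CPM, each below none in both diabetic libraries, although with library totals alone acinar-like exercise stood at 1.04 times none. In ductal-like cells it was at 71.2, 74.0 and 60.8 CPM, with a diabetic sedentary to none ratio of 1.04 (0.876 to 1.24). Dnajb4, another inducible J protein, differed less, with levels of 92.2, 71.0 and 56.9 CPM in ductal-like cells, its highest class. Dnaja4 was sparse, with at most 102 UMIs in a class and library, and was at 13.5, 7.87 and 9.32 CPM in acinar-like cells and 9.59, 4.61 and 5.72 CPM in fibroblast-like cells.

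Bag3, the co-chaperone that links HSP70 to small heat shock proteins and to autophagy, was at 43.3, 7.64 and 18.2 CPM in myeloid-like, 87.9, 41.8 and 40.0 CPM in endothelial-like and 59.9, 43.7 and 29.2 CPM in fibroblast-like cells. The myeloid-like ratio of diabetic sedentary to none was 0.176 (0.0807 to 0.347), on 10 and 62 UMIs. In acinar-like and ductal-like cells it stood at 31.9, 26.7 and 18.9 and 25.3, 28.0 and 17.4 CPM, lowest in exercise, except that with library totals alone acinar-like exercise stood at 1.44 times diabetic sedentary.

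Hspb1, the small heat shock protein HSP27, went opposite ways in different classes. In ductal-like cells, whose make-up by cluster differed between libraries, it was at 76.4, 136 and 161 CPM. Exercise thus stood at 2.11 (1.80 to 2.47) times none there. In fibroblast-like cells it was at 112, 39.7 and 33.7 CPM and in myeloid-like cells at 56.5, 8.40 and 9.08 CPM, with exercise at 0.301 (0.215 to 0.416) and 0.161 (0.0742 to 0.311) times none. A single fibroblast-like cell held 32.1% of the 140 UMIs of Hspb1 in none. Endothelial-like cells, its highest class, held 658, 474 and 479.6 CPM, and acinar-like cells 177, 99.4 and 88.6 CPM. With library totals alone acinar-like exercise stood above diabetic sedentary, on 304 of 10081882 against 821 of 49240504 UMIs. Cryab, alpha B-crystallin, was highest in ductal-like cells at 139.8, 199.7 and 148 CPM, with its top level in diabetic sedentary. In acinar-like cells Cryab was at 127, 117 and 79.0 CPM and in fibroblast-like cells at 63.1, 50.8 and 30.5 CPM. Its acinar-like level was higher in exercise than in diabetic sedentary with library totals alone. Endothelial-like and myeloid-like cells held 22.5, 11.7 and 16.2 and 14.7, 8.40 and 6.36 CPM, on at most 27 UMIs in a library. Hspb8, which works with Bag3, was clearest in fibroblast-like cells at 46.3, 20.9 and 26.1 CPM, with diabetic sedentary at 0.452 (0.309 to 0.661) times none. In ductal-like cells Hspb8 was at 5.24, 2.77 and 1.74 CPM, on at most 28 UMIs in a library. Hspb2 overlaps Cryab on the other strand, so reads of the 2 cannot be told apart if strand was not used.

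**Figure D3:**
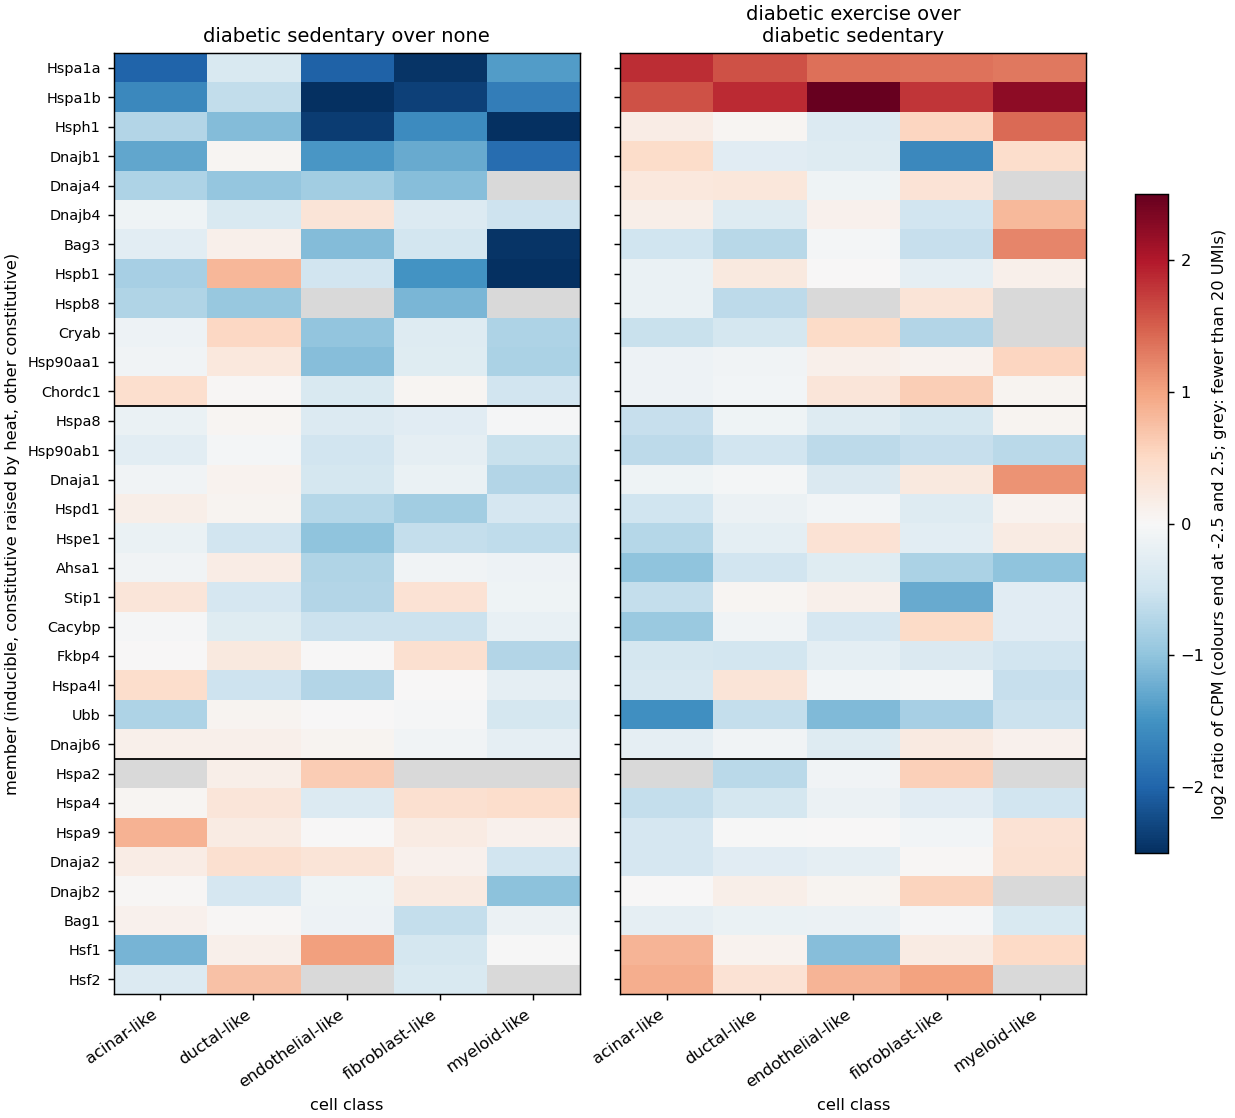
Log2 ratio of CPM for each of the 32 genes (rows) in the 5 classes (columns), diabetic sedentary over none on the left and diabetic exercise over diabetic sedentary on the right, with colours ending at -2.5 and 2.5 and grey for fewer than 20 UMIs. Hspa1a and Hspa1b are blue on the left and red on the right in every class, whereas Ubb and Hsp90ab1 are blue on the right in all 5. The blue of Hspa1a in ductal-like cells turns without 1 cell of none, and that of Hsp90ab1 in acinar-like cells turns with library totals alone (1.28 times).

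HSP90 genes and Ubb, which encodes ubiquitin as a head-to-tail chain of repeats, showed another order. Hsp90ab1, the constitutive HSP90, was lower in exercise than in diabetic sedentary in all 5 classes, with ratios of 0.627 to 0.718 and no interval reaching 1, but with library totals alone the acinar-like ratio turned to 1.28. Its levels were 814, 554 and 348 CPM in myeloid-like, 782, 562 and 357 CPM in endothelial-like, 671, 648 and 465 CPM in ductal-like, 554, 459.8 and 291 CPM in acinar-like and 508, 435 and 292 CPM in fibroblast-like cells. None was the highest library in each of them with the TMM factors. With library totals alone diabetic sedentary stood above none in ductal-like and fibroblast-like cells. Ubb was at 398, 234 and 80.1 CPM in acinar-like cells, where exercise stood at 0.343 (0.301 to 0.389) times diabetic sedentary, and at 0.696 times with library totals alone. Ductal-like cells held 476, 498 and 332 CPM of Ubb, endothelial-like cells 451, 452 and 209 CPM, fibroblast-like cells 477, 467 and 262 CPM and myeloid-like cells 550.1, 408 and 281 CPM. In the ductal-like, endothelial-like and fibroblast-like classes Ubb was level between none and diabetic sedentary with the TMM factors and lower only in exercise. With library totals alone Ubb stood higher in diabetic sedentary than in none in each of these classes. On library totals alone the acinar-like median of all 20 constitutive genes turned from -0.44 to 0.58 for exercise against diabetic sedentary, so the direction in acinar-like cells depends on scaling.

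Hsp90aa1, the inducible HSP90, was at 203, 97.9 and 107 CPM in endothelial-like and 274, 157 and 229.7 CPM in myeloid-like cells. Diabetic sedentary stood at 0.482 (0.376 to 0.623) and 0.575 (0.483 to 0.682) times none, and exercise at 1.10 (0.875 to 1.37) and 1.46 (1.21 to 1.76) times diabetic sedentary. In ductal-like cells, its highest class in both diabetic libraries, it was at 269, 323 and 303 CPM. Acinar-like and fibroblast-like cells held 199, 187 and 171 and 191, 154 and 163 CPM. Among HSP90 co-chaperones, Ahsa1, which stimulates the HSP90 ATPase, was lower in exercise than in diabetic sedentary in all 5 classes, from 0.488 times in myeloid-like to 0.801 times in endothelial-like cells, though with library totals alone its acinar-like ratio was 1.01. Its acinar-like levels were 24.9, 23.5 and 11.7 CPM, its endothelial-like levels 31.6, 19.1 and 15.3 CPM and its myeloid-like levels 32.8, 29.8 and 14.5 CPM. Stip1, the adaptor between HSP70 and HSP90, was at 14.4, 18.8 and 7.62 CPM in fibroblast-like cells, with exercise at 0.405 (0.197 to 0.768) times diabetic sedentary on 12 and 53 UMIs. Fkbp4, a prolyl isomerase of steroid receptor complexes, was highest in acinar-like cells at 148, 148 and 109 CPM, and in myeloid-like cells was at 51.0, 30.6 and 21.8 CPM. Cacybp and Chordc1 ranged from 16.0 to 48.3 CPM and from 13.6 to 27.6 CPM over the classes and libraries, and neither passed a 2-fold difference in any class.

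**Figure D4:**
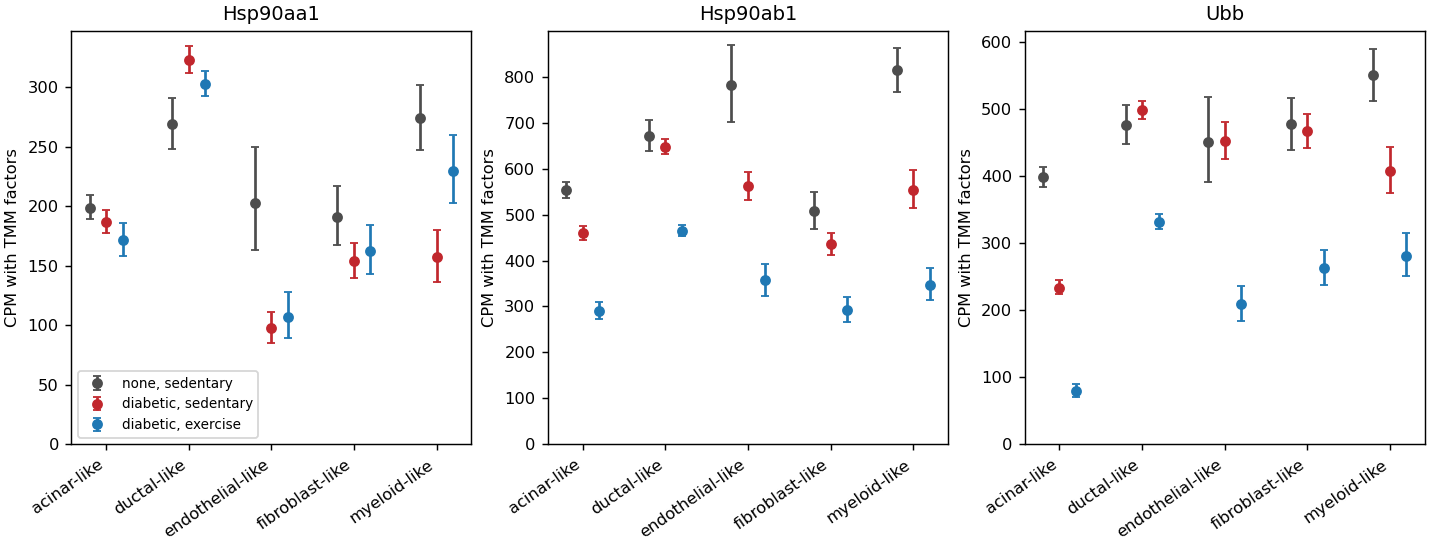
Level (CPM with TMM factors, linear axis from 0) of Hsp90aa1, Hsp90ab1 and Ubb in the 5 classes, 1 point per library, with 95% Poisson intervals for counting error. Hsp90ab1 and Ubb are lowest in exercise in every class (80.1 CPM of Ubb in acinar-like cells against 234 and 398 CPM), for Hsp90ab1 in acinar-like cells only with these factors, whereas Hsp90aa1 in endothelial-like and myeloid-like cells is lowest in diabetic sedentary.

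Hspa8, the constitutive HSP70, was level in myeloid-like cells at 503, 493 and 516 CPM with TMM factors, beside the Hspa1a and Hspa1b differences there. With library totals alone it was lowest in none there, on 720, 645 and 568 of 1393360, 992315 and 785701 UMIs. Elsewhere it was at 354, 279.7 and 222 CPM in endothelial-like, 305, 270.1 and 180.3 CPM in acinar-like, 227, 187 and 139 CPM in fibroblast-like and 235, 243 and 226 CPM in ductal-like cells. In endothelial-like, acinar-like and fibroblast-like cells the level was lower in diabetic sedentary than in none and lower again in exercise, but with library totals alone acinar-like exercise stood at 1.35 times diabetic sedentary, and endothelial-like diabetic sedentary at 1.02 times none. Dnaja1, a J protein that serves Hspa8, was at 117, 70.3 and 153 CPM in myeloid-like cells, with exercise at 2.18 (1.68 to 2.85) times diabetic sedentary. The endothelial-like, fibroblast-like, ductal-like and acinar-like levels of Dnaja1 were 115, 85.3 and 66.4, 99.1, 88.4 and 104, 87.4, 92.9 and 89.5 and 49.2, 46.1 and 42.8 CPM. Dnaja2, Dnajb6 and Hspa4, J proteins and an HSP110 that are not strongly induced, stayed between 28.8 and 81.6 CPM in all classes and libraries, and none of them differed 2-fold. Hspa4l and Bag1 also stayed under a 2-fold difference, and Bag1 was highest in acinar-like cells at 443, 475 and 404 CPM.

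The genes of the mitochondrial matrix split. Hspd1 and Hspe1, which encode the chaperonin HSP60 and its lid HSP10 from the shared promoter shown above, were at 84.7, 46.1 and 36.9 and 132, 86.9 and 71.8 CPM in fibroblast-like cells, with diabetic sedentary at 0.545 (0.418 to 0.711) and 0.660 (0.539 to 0.808) times none. In endothelial-like cells they were at 54.1, 33.5 and 31.5 and 92.4, 46.1 and 58.8 CPM, and in myeloid-like cells at 73.3, 55.0 and 58.1 and 164, 106 and 123 CPM. Their ductal-like levels were 61.2, 64.6 and 58.3 and 126, 91.3 and 77.3 CPM and their acinar-like levels 98.9, 110.0 and 77.8 and 219, 196 and 119 CPM. The 2 genes overlap on opposite strands. Both were highest in none in the endothelial-like, fibroblast-like and myeloid-like classes, but in myeloid-like cells exercise stood at 1.08 and 1.02 times none with library totals alone. Hspa9, the mitochondrial HSP70, was the constitutive gene with the largest excess over none in diabetic sedentary acinar-like cells. It was at 135, 246 and 185 CPM there, with a ratio to none of 1.82 (1.68 to 1.96). In the other 4 classes its ratio of diabetic sedentary to none was 1.02 to 1.16. With library totals alone the acinar-like levels of Hspd1, Hspe1 and Hspa9 were higher in exercise than in diabetic sedentary.

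The messages of the heat shock factors themselves were sparse. Hsf1 was at 3.27 to 11.3 CPM and Hsf2 at 2.62 to 11.4 CPM over the classes and libraries. Hsf1 was at 7.42, 3.27 and 5.83 CPM in acinar-like cells, on 56, 27 and 20 UMIs, with diabetic sedentary at 0.440 (0.267 to 0.709) times none. In endothelial-like cells it was at 4.51, 11.3 and 5.11 CPM, on 2, 26 and 6 UMIs, and the intervals of its ratios included 1. Hsf2 was at 2.62, 4.66 and 5.96 CPM in ductal-like cells, on 6, 47 and 65 UMIs, and at 7.19, 5.68 and 11.4 CPM in fibroblast-like cells, and its ratios there had intervals that included 1. Hspa2, an HSP70 best known from the testis, was at 17.9, 19.9 and 12.5 CPM in ductal-like and 11.3, 19.1 and 17.9 CPM in endothelial-like cells, and had 2, 10 and 5 UMIs in acinar-like cells. Dnajb2 was at 9.77, 4.58 and 8.17 CPM in myeloid-like cells, on 14, 6 and 9 UMIs.

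Counted over the members, differences of 2-fold or more between diabetic sedentary and none were mostly lower levels in diabetic sedentary. In fibroblast-like cells 7 of 31 measured members were at least 2-fold lower in diabetic sedentary than in none, beside 3.58% of all genes measured, and 0 were 2-fold higher (6.43% of all genes). In endothelial-like cells 7 of 30 were lower (4.48% of all genes) and 1, Hsf1, was higher (9.94%). In myeloid-like cells 7 of 28 were lower (4.14%) and 0 higher (4.63%). In acinar-like cells 4 of 31 were lower (3.46%) and 0 higher (5.41%). In ductal-like cells Hsph1 alone of 32 was lower (2.68%) and 0 were higher (7.5%). Among the genes counted as lower, the 4 acinar-like genes were Hspa1a, Hspa1b, Dnajb1 and Hsf1, and the 7 endothelial-like genes were Hspa1a, Hspa1b, Hsph1, Dnajb1, Bag3, Hsp90aa1 and Hspe1. The 7 fibroblast-like genes were Hspa1a, Hspa1b, Hsph1, Dnajb1, Dnaja4, Hspb1 and Hspb8, and the 7 myeloid-like genes Hspa1a, Hspa1b, Hsph1, Dnajb1, Bag3, Hspb1 and Dnajb2. 

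In the exercise library the 2-fold differences from diabetic sedentary were led by Hspa1a and Hspa1b. Hspa1a and Hspa1b were the 2 genes at least 2-fold higher in acinar-like (7.06% of all genes measured), ductal-like (3.72%) and endothelial-like cells (3.99%). In fibroblast-like cells Hsf2 made it 3 (3.85%), and in myeloid-like cells Hsph1, Bag3 and Dnaja1 made it 5 (3.49%). At least 2-fold lower were Ubb in acinar-like cells (5.11% of all genes), where Ahsa1 stood at 0.496 times but just short of 2-fold on the log2 scale with a prior count of 0.5, Ubb and Hsf1 in endothelial-like cells (4.59%), Dnajb1 and Stip1 in fibroblast-like cells (3.72%), Ahsa1 in myeloid-like cells (3.95%) and 0 genes in ductal-like cells (1.23%). For exercise against none, 8 of 28 members were at least 2-fold lower in myeloid-like (6.07% of all genes), 7 of 31 in fibroblast-like (4.97%), 6 of 27 in endothelial-like (7.3%), 2 of 31 in acinar-like (8.04%) and 2 of 32 in ductal-like cells (3.56%). The 4 members at least 2-fold higher, Hspa1a, Hspa1b, Hspb1 and Hsf2, were all in ductal-like cells (11.9% of all genes).

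With library totals alone, a check chosen after seeing the data, several of these 2-fold counts changed along with the share of all genes past the limit, given in parentheses. For exercise against diabetic sedentary, 9 members were higher (41.1%) and 0 lower (0.399%) in acinar-like cells and 0 lower (3.06%) in myeloid-like cells. For diabetic sedentary against none, 4 were lower (1.59%) and 2 higher (19.2%) in endothelial-like, 4 lower (1.86%) in fibroblast-like and 0 lower (1.9%) in ductal-like cells. For exercise against none, 3 were higher (34.9%) and 1 lower (1.1%) in acinar-like, 3 higher (18.5%) and 2 lower (1.9%) in fibroblast-like, 2 lower (2.26%) in endothelial-like, 2 lower (2.18%) in myeloid-like and 1 lower (2.1%) in ductal-like cells. The median log2 ratio of all genes moved by over 0.1 with this scaling in 13 of the 15 comparisons, by 0.41 to 0.45 for exercise against none in endothelial-like, fibroblast-like and myeloid-like cells and furthest in acinar-like cells, by 1.02 for exercise against diabetic sedentary.

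More members passed a 1.5-fold limit, and so did more of all genes, whose share called is given in parentheses. For diabetic sedentary against none, the members at least 1.5-fold lower numbered 9 (11%) in acinar-like, 4 (7.75%) in ductal-like, 13 (14%) in endothelial-like, 10 (11.3%) in fibroblast-like and 12 (12.3%) in myeloid-like cells. In the same comparison, the members at least 1.5-fold higher numbered 1 (12.5%) in acinar-like, 2 (17.7%) in ductal-like, 2 (21%) in endothelial-like, 0 (16.1%) in fibroblast-like and 0 (13.9%) in myeloid-like cells. The lower members thus outnumbered the higher ones in each class there. For exercise against diabetic sedentary, the members at least 1.5-fold lower numbered 7 (20.2%) in acinar-like, 4 (5.65%) in ductal-like, 3 (16.1%) in endothelial-like, 5 (11.9%) in fibroblast-like and 2 (13.1%) in myeloid-like cells. In the same comparison, the members at least 1.5-fold higher numbered 4 (14.7%) in acinar-like, 2 (10.2%) in ductal-like, 3 (11.7%) in endothelial-like, 5 (12.2%) in fibroblast-like and 6 (11%) in myeloid-like cells. For exercise against none, the members at least 1.5-fold lower numbered 11 (22.9%) in acinar-like, 5 (10.5%) in ductal-like, 15 (20.1%) in endothelial-like, 17 (14.4%) in fibroblast-like and 10 (17%) in myeloid-like cells. In the same comparison, the members at least 1.5-fold higher numbered 0 (15.7%) in acinar-like, 4 (24.1%) in ductal-like, 0 (19.7%) in endothelial-like, 3 (17.6%) in fibroblast-like and 0 (15.4%) in myeloid-like cells.

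As lists, the inducible and the constitutive genes differed most between none and diabetic sedentary. The median log2 ratio of the 12 inducible genes was -1.56 in myeloid-like, -1.10 in fibroblast-like, -1.06 in endothelial-like, -0.75 in acinar-like and -0.18 in ductal-like cells. That of the measured constitutive genes was -0.22, -0.09, -0.34, 0.01 and 0.08, and that of all genes measured 0.02, 0.04, 0.05, 0.02 and 0.13. Lower in diabetic sedentary were 10 of 10, 11 of 12, 10 of 11, 11 of 12 and 6 of 12 measured inducible genes in the same order of classes. For exercise against diabetic sedentary the inducible medians were 0.82, 0.20, 0.11, 0.01 and -0.08, the constitutive medians -0.28, -0.06, -0.19, -0.44 and -0.13, and those of all genes -0.05, -0.0033, -0.07, -0.16 and 0.01. The median of all genes was off 0 by over 0.1 in ductal-like cells for the first comparison and in acinar-like cells for the second, and list medians there are read relative to it. For exercise against none the inducible medians were -0.54 in acinar-like, -0.14 in ductal-like and -0.63 in endothelial-like cells, beside -0.14, 0.13 and -0.06 for all genes. Over the alternatives tried the first 2 reached 0.36 and 0.39. The fibroblast-like median then ran from -1.13 to -0.49 and the myeloid-like one from -1.16 to -0.33.

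**Figure D5:**
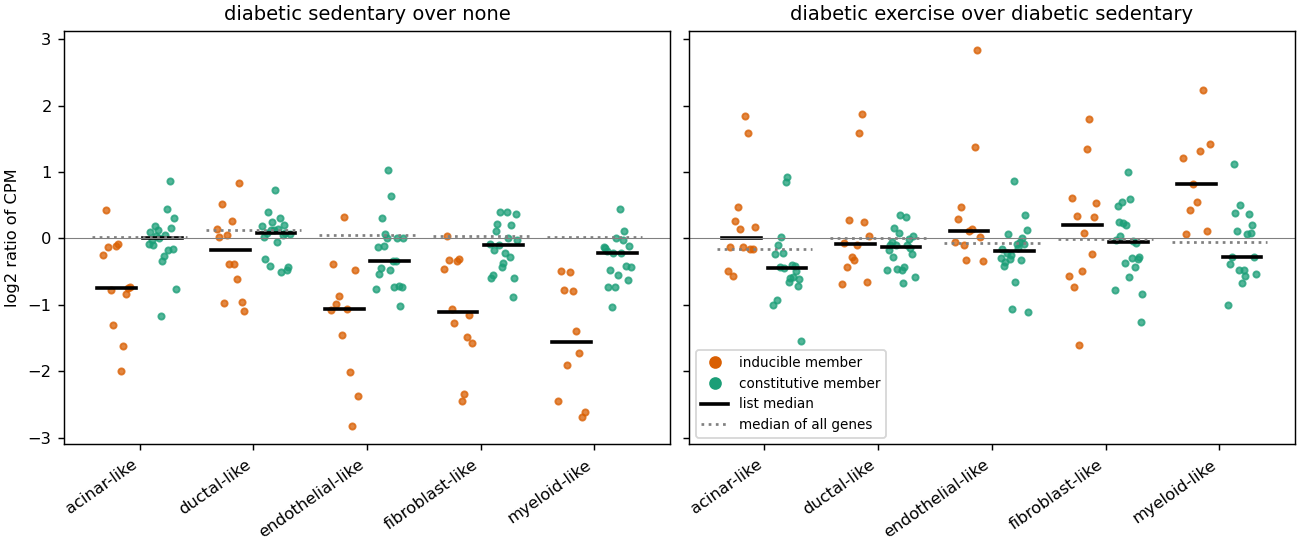
Log2 ratio of CPM (vertical axis) of each measured inducible (orange) and constitutive (green) gene in the 5 classes, with the list median as a black bar and the median of all genes measured as a dotted line, diabetic sedentary over none on the left and exercise over diabetic sedentary on the right. On the left the inducible medians lie below the constitutive ones in every class (-1.56 against -0.22 in myeloid-like cells), and on the right Hspa1a and Hspa1b are the highest orange points in every class but the myeloid-like one, where Hsph1 lies between them.

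Outside acinar-like cells, neighbouring parts of the stress response had lower medians in exercise than in diabetic sedentary, where Hspa1a and Hspa1b were higher. Of 20 immediate early genes, which dissociation and other stimuli switch on within minutes, 20 of 20 in fibroblast-like and 19 of 20 in endothelial-like cells were lower in exercise than in diabetic sedentary, with medians of -1.13 and -0.77. In acinar-like, ductal-like and myeloid-like cells 16, 17 and 15 of 20 were lower. Against none their medians in diabetic sedentary were -0.16 to -0.35 over the 5 classes. With library totals alone they were 0.08, 0.08 and 0.11 in endothelial-like, fibroblast-like and myeloid-like cells, turned in direction. In ductal-like and acinar-like cells they were then -0.01 and -0.47. The medians of all genes on that scaling were 0.42, 0.31, 0.38, 0.28 and -0.10 in the same order of classes. Fos, as an example, was at 1357, 1582 and 619.5 CPM in fibroblast-like cells. Of 15 chaperones of the endoplasmic reticulum, 13 were higher in diabetic sedentary than in none in acinar-like and 12 in fibroblast-like cells. Only 6 were higher in ductal-like and 5 in endothelial-like cells, and the summed myeloid-like level stood at 0.897 times none. With library totals alone 10, 12 and 12 were higher in ductal-like, endothelial-like and myeloid-like cells. Lower in exercise than in diabetic sedentary were 15, 14, 12, 14 and 14 of 15 in acinar-like, ductal-like, endothelial-like, fibroblast-like and myeloid-like cells. Hspa5, the HSP70 of the endoplasmic reticulum, was at 1111, 1645 and 861 CPM in acinar-like cells. With the TMM factors it was thus highest in diabetic sedentary, where Hspa1a and Hspa1b were lowest. With library totals alone Hspa5 stood higher in exercise than in diabetic sedentary there. The 8 subunits of the TRiC chaperonin were lower in exercise in 8, 7, 7, 8 and 7 cases in the same classes, with medians of -0.50, -0.13, -0.38, -0.48 and -0.17. Of 30 further co-chaperones, 16 of 21 measured in myeloid-like and 24 of 29 in acinar-like cells were lower in exercise. In acinar-like cells the direction turned with the scaling: with library totals alone, a check of these lists chosen after seeing the data, 18 of 20 immediate early genes, 10 of 15 chaperones of the endoplasmic reticulum, 8 of 8 TRiC subunits and 29 of 29 co-chaperones were higher in exercise than in diabetic sedentary, with medians of 0.73, 0.12, 0.52 and 0.58. That scaling moved the median of all genes in the same comparison from -0.16 to 0.86, so all 4 lists lay below all genes on it. In the other 4 classes the medians of these lists stayed below 0 on that scaling, from -0.95 to -0.0092. The mitochondrial share of UMIs was highest in exercise in each class, and its part in these results was not tested.

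Smaller classes were given levels only. Mural-like cells (44, 144 and 86 cells) held 835 (690.0 to 1002), 542 (484 to 605) and 426 (363 to 496) CPM of the summed genes, an order in which exercise is not above diabetic sedentary. T-like cells (188, 20 and 34) held 44.5 (30.7 to 62.6), 23.2 (4.79 to 67.9) and 245 (175 to 334) CPM. Endocrine-like cells (6, 67 and 15), the class that holds the insulin-making cells, held 87.4 (41.9 to 161), 8.21 (2.67 to 19.2) and 379 (315 to 451) CPM. Too few endocrine-like cells were found for more than these values. Mesothelial-like cells (38, 10 and 15) held 457 (385 to 539), 33.7 (9.18 to 86.3) and 27.9 (7.61 to 71.5) CPM. B-like cells (230, 15 and 10), erythroid-like cells (52, 46 and 44) and neutrophil-like cells (15, 23 and 13) had at most 20 UMIs of the summed genes in a library. Cells of unnamed clusters (906, 2744 and 9407), rich in acinar or mitochondrial RNA, held 123 (106 to 141), 34.2 (28.3 to 41.0) and 143 (132 to 154) CPM, lowest in diabetic sedentary.

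The genes whose level ran most like that of Hspa1a plus Hspa1b were sought over the 15 sums of 5 classes and 3 libraries, among 1300 genes with at least 20 UMIs in every sum. Zyx led with a Pearson r of 0.748, followed by Trip12 at 0.736, Atp2b1 at 0.733, Rap1b at 0.729 and Tmsb4x at 0.724. Among the members, Dnaja1 came next to the 2 genes themselves at 0.565, then Hspa8 at 0.547 and Dnajb1 at 0.461, while Hspa4 and Dnaja2 stood at -0.56 and -0.57. With each class centred on its own mean, Gatm led at 0.838 and Amy2b followed at 0.801, both abundant in acinar cells, and of the members Hsp90aa1 came next to the pair at 0.563. The sums share libraries, depth and stray acinar RNA, so these values describe the 15 sums and no more.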

How the data were processed

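Single-cell RNA was measured in 3 mouse pancreas libraries, 1 per group. The authors deposited raw UMI counts per gene and barcode. They were made with Cell Ranger, version 6.1.2 per the file headers and 7.1.0 per the submitters' processing notes. No source used here names the genome build, and all 55450 features match GENCODE M21 (GRCm38). Barcodes with at least 500 UMIs, 200 genes and at most 20% mitochondrial UMIs were kept. Scrublet's own threshold marked no doublets, so the top 5% of its score was removed per library. Cells were clustered with scanpy 1.11.5 on 2000 variable genes without the heat shock and pathway genes, with 30 components, 15 neighbours and Leiden resolution 1. Clusters were named from marker lists, and the myeloid and endocrine markers were pooled after the data were seen. UMIs were summed per class and library and scaled with TMM factors (edgeR 4.0.16). Ratios have exact conditional Poisson 95% intervals, log2 ratios a prior count of 0.5, and shares exact binomial intervals. UMIs are counted molecules, and all intervals cover counting error only. The ratio code was tested on simulated data. Values are given in every library for 14 genes (Hspa1a, Hspa1b, Hsph1, Dnajb1, Hspb1, Bag3, Hsp90aa1, Hspa8, Hsp90ab1, Cryab, Hspd1, Hspe1, Ubb and Dnaja1) and, in each class, for any other member past 2-fold. The members and lists were chosen with earlier results of these data known. The alternatives tried were other cell filters, clusterings, scalings, thinning to 1000 UMIs, subtraction of acinar RNA, UMI minimums of 50 and 1, and leaving out the richest cell.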

Additional observations from a re-analysis of the deposited data

Results flagged for a closer look

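For 2 genes the exercise over none ratio was past 2-fold in opposite directions in ductal-like cells and in another class, with intervals beyond 1, and with 1 library per group the difference between classes was not tested. For Hspa1a it was 2.32 in ductal-like and 0.466 in fibroblast-like cells. The ductal-like none library held 96 UMIs of Hspa1a, of which 61 were left without its richest cell, and the ratio was then 3.57. The fibroblast-like ratio without the richest cells was 0.504 (0.413 to 0.614), just short of 2-fold. With library totals alone it was short of 2-fold too, on 178 of 1060676 UMIs in exercise and 304 of 1148894 in none. For Hspb1 the exercise over none ratio was 2.11 in ductal-like cells, 0.301 in fibroblast-like cells and 0.161 in myeloid-like cells. Of the ductal-like cells, 202 of 203 in none but 862 of 1193 in exercise came from 1 cluster. The part of this difference in the Hspb1 ratio was not tested. In none, 1 fibroblast-like cell held 32.1% of the Hspb1 UMIs of its class.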

How the results depend on the processing

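No paired analysis was possible because each group has 1 library, and no replicate could be left out. The 1.02 ratio of Hspa1a plus Hspa1b in ductal-like cells (diabetic sedentary over none) without the richest cell was chosen after seeing the data and is reversed against 0.708, because 1 none cell held 68 of 208 UMIs. Thinning to 1000 UMIs gave, for diabetic sedentary over none, 0.372 in acinar-like, 0.571 in ductal-like and 0.335 in fibroblast-like cells, for exercise over diabetic sedentary 1.95 in fibroblast-like and 2.59 in myeloid-like cells, and for exercise over none 1.02 in endothelial-like and 0.962 in myeloid-like cells, both reversed. Library totals alone gave 0.255 in endothelial-like, 0.228 in fibroblast-like and 0.449 in myeloid-like cells for diabetic sedentary over none, 6.56 in acinar-like cells for exercise over diabetic sedentary and 1.10, reversed, in endothelial-like cells for exercise over none. Resolution 2 gave 0.258 and 2.01 in acinar-like cells for the first 2 comparisons, keeping doublets 2.60 and no cell filter 2.70 for the second, and libraries clustered apart 0.277 in myeloid-like cells for the first. The inducible median log2 ratio became 1.03 in acinar-like cells for exercise over diabetic sedentary with library totals, and with thinning 0.22 in ductal-like cells for diabetic sedentary over none and -0.38 in fibroblast-like cells for exercise over diabetic sedentary. With library totals the acinar-like constitutive median turned to 0.58 for exercise over diabetic sedentary and to 0.57 over none, and the inducible median over none to 0.36. Library totals moved the median log2 ratio of all genes there from -0.16 to 0.86 for exercise over diabetic sedentary and from -0.14 to 0.76 over none. Apart from the ductal-like case, the cause of these changes was not tested. With 1.5-fold in place of 2-fold, members lower in diabetic sedentary than in none numbered 9 in acinar-like (4 at 2-fold), 4 in ductal-like (1), 13 in endothelial-like (7) and 12 in myeloid-like cells (7), and those lower in exercise than in none 11 in acinar-like (2), 5 in ductal-like (2), 15 in endothelial-like (6) and 17 in fibroblast-like cells (7). For exercise over diabetic sedentary 1.5-fold gave 4 higher (2) and 7 lower (1) in acinar-like, 4 lower (0) in ductal-like, 5 higher (3) and 5 lower (2) in fibroblast-like and 2 lower (1) in myeloid-like cells. Members higher at 1.5-fold numbered 1 (0) in acinar-like, 2 (0) in ductal-like and 2 (1) in endothelial-like cells in diabetic sedentary over none, and 3 (0) in fibroblast-like cells in exercise over none. The shares of all genes at 1.5-fold are given with the same counts above. A minimum of 50 UMIs gave 1 lower in ductal-like cells for exercise over none and 0 higher in endothelial-like cells for diabetic sedentary over none. For exercise over diabetic sedentary it gave 1 lower in endothelial-like and 3 higher in myeloid-like cells. No share of all genes is given at that minimum, so these counts are not read as a result about the members. Libraries clustered apart gave no ductal-like value for none and no myeloid-like value for exercise.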
